A study of Mus musculus with 2 samples.

Results

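The genes described here are 10 factors of the circadian clock and its output, Arntl, Clock, Per1, Per2, Per3, Cry1, Cry2, Nr1d1, Dbp and Hlf, in kidneys of mice that lack Iah1, a gene named after a yeast esterase that cleaves isoamyl acetate. They were chosen by name, with earlier results of these data known, and each was read from the probe set (the probes that report 1 transcript unit) whose platform annotation carried its symbol and no other. That gave 9 of the 10 members, out of 22180 genes with such a probe set. The only probe set annotated to Per2 is shared with the neighbouring symbol 9830107B12Rik, so its value stands apart below. The study compared systemic Iah1-KO males with Iah1-WT males. Mice of both genotypes were caged singly, ate chow until 6 weeks of age and then a high-fat diet for another 12 weeks, and so were about 18 weeks old. Kidneys of both were taken between 13 and 14 hours of the day after 4 hours without food. Each genotype was represented by 1 array of RNA pooled from 3 mice, so the 2 values of a gene are means over animals with no spread between them, no test is possible, and every difference below describes these 2 pools only. Iah1 itself was at 3.60 in the Iah1-KO pool and 9.09 in the Iah1-WT pool, though where its probes lie relative to the deleted part is unknown here. The sources used here do not give the light schedule, the design of the allele or the genetic background.

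The circadian clock is a feedback loop of transcription that runs in almost every cell, the kidney's tubule cells included. A heterodimer of CLOCK and BMAL1 (the product of Arntl) binds E-box elements and switches on the Period and Cryptochrome genes, whose proteins return to the nucleus and repress that dimer. A second loop joins Nr1d1, which encodes REV-ERB alpha and represses Arntl through ROR elements, and the clock reaches its output genes partly through the PAR bZIP factors DBP, HLF and TEF, which bind D-box elements. In kidney the clock is known to set the daily course of sodium, potassium and water handling. The RNA of Dbp, Nr1d1 and the Period genes is known to swing widely over the day in mouse kidney, that of Clock little, and Arntl runs roughly opposite to Dbp, so a pair of pools taken within an hour of clock time is a snapshot of this cycle.

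Promoters of some of these genes held the letters of clock elements or of the cAMP response element. Of these, 5 are shown, which together hold each element searched for. RefSeq windows of 300 bases, from 250 before to 50 after an annotated start (GRCm38.p6), were found for 9 of the 10 members. In capitals are the E-box CACGTG and the related CACGTT (each searched on both strands), the D-box TTATGTAA or TTACGTAA, the core TAGGTCA of the ROR element and the cAMP response element TGACGTCA. The windows are chr11:69098699-69098998 on the plus strand for the first of 2 annotated Per1 starts, chr10:85185005-85185304 on the minus strand for Cry1, chr4:151044616-151044915 on the minus strand for Per3, chr7:113207261-113207560 on the plus strand for the second of 2 Arntl starts, and chr11:90390868-90391167 on the minus strand for Hlf.
Per1: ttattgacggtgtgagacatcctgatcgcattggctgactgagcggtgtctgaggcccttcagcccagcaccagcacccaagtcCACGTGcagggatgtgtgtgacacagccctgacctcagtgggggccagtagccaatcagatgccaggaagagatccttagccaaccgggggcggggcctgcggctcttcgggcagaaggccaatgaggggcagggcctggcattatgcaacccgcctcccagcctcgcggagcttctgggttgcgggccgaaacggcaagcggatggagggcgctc
Cry1: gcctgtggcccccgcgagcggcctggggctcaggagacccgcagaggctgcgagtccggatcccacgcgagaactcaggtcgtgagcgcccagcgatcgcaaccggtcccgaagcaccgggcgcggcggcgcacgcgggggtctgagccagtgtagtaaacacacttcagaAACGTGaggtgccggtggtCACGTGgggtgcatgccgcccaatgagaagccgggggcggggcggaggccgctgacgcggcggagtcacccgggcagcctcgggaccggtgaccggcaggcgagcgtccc
Per3: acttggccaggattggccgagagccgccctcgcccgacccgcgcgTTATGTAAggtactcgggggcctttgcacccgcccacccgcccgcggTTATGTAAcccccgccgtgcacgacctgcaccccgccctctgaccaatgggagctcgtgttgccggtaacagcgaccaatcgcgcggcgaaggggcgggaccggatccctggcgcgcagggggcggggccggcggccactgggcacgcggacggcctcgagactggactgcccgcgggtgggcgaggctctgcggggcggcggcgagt
Arntl: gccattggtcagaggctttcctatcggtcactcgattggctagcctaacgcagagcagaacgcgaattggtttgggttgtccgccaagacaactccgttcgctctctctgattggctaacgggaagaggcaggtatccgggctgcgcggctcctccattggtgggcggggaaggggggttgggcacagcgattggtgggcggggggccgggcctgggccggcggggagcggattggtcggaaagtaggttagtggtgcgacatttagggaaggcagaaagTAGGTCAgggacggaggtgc
Hlf: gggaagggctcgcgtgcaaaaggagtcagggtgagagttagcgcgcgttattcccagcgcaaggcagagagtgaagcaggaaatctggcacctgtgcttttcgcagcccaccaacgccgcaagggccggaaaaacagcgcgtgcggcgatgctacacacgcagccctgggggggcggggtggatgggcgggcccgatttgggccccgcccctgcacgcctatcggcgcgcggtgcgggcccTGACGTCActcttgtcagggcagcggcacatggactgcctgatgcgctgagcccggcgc

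Per1 held an E-box 166 bases before the start, and Cry1 held one 60 bases before it with a CACGTT on the opposite strand 79 bases before it. Only Per3 among the members held D-boxes in its window, at 205 and 158 bases before the start. The Arntl window held a ROR element core 31 bases after the start, and Hlf a cAMP response element 9 bases before it. Cry2 and Nr1d1 held a CACGTT on the opposite strand, 166 and 28 bases before the start. The windows of Dbp and Clock held none of these letters. Of all 32851 windows of this length, 7.15% held an E-box, 4.68% a CACGTT, 1.06% a D-box, 2.61% the ROR core and 1.79% the cAMP response element. Counted by gene in the same order, 2, 3, 1, 1 and 1 of the 9 members held them. Over 27025 genes the shares were 8.09%, 5.44%, 1.23%, 2.97% and 2.03%. A match is a description of the letters, and elements outside these windows were not examined.

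The output factors were the members that stood furthest from genes of like brightness. Dbp, a PAR bZIP activator long used as a readout of clock phase (probe set 17477979, chromosome 7), had a log2 RMA value of 9.51 in the Iah1-KO pool and 9.29 in the Iah1-WT pool. The Iah1-KO value was thus 16.4% higher, a difference of 0.22 on the log2 scale, against a robust SD of 0.088 among the differences of the 500 genes nearest in mean value. Hlf, its close relative (probe set 17267702, chromosome 11), was at 8.18 in the Iah1-KO pool and 7.94 in the Iah1-WT pool. Its difference was 0.24, or 18.0%, against a robust SD of 0.11. These differences were 2.49 and 2.20 times the local robust SD, and no other member exceeded 1.71 times. The robust SD, a median absolute deviation scaled to match the SD of a normal distribution, describes the scatter over genes on these 2 arrays and is not an error between animals.

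Tef, the third PAR bZIP factor, was not among the members but completes the family. Its brighter probe set was at 7.72 in the Iah1-KO pool and 7.57 in the Iah1-WT pool, a difference of 0.15 against a robust SD of 0.13. Its dimmer probe set went the other way, at 5.05 in the Iah1-KO pool and 5.19 in the Iah1-WT pool. In their brightest probe sets all 3 PAR bZIP factors were therefore higher in the Iah1-KO pool, with differences between 0.15 and 0.24, while 1 of Tef's 2 probe sets was lower.

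The activators differed little or were too dim to judge. Clock, which encodes a bHLH-PAS subunit of the activating dimer (probe set 17448960, chromosome 5), was at 9.31 in the Iah1-KO pool and 9.34 in the Iah1-WT pool, a difference of -0.031 against a robust SD of 0.088. Arntl, whose product BMAL1 is the dimer's other subunit (probe set 17481960, chromosome 7), was at 5.21 in the Iah1-KO pool and 5.05 in the Iah1-WT pool. Its difference of 0.15 was smaller than the robust SD of 0.24 at that level. Arntl lay not far above the medians of all probe sets on the arrays, 4.03 in the Iah1-KO pool and 4.05 in the Iah1-WT pool.

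**Figure D1:**
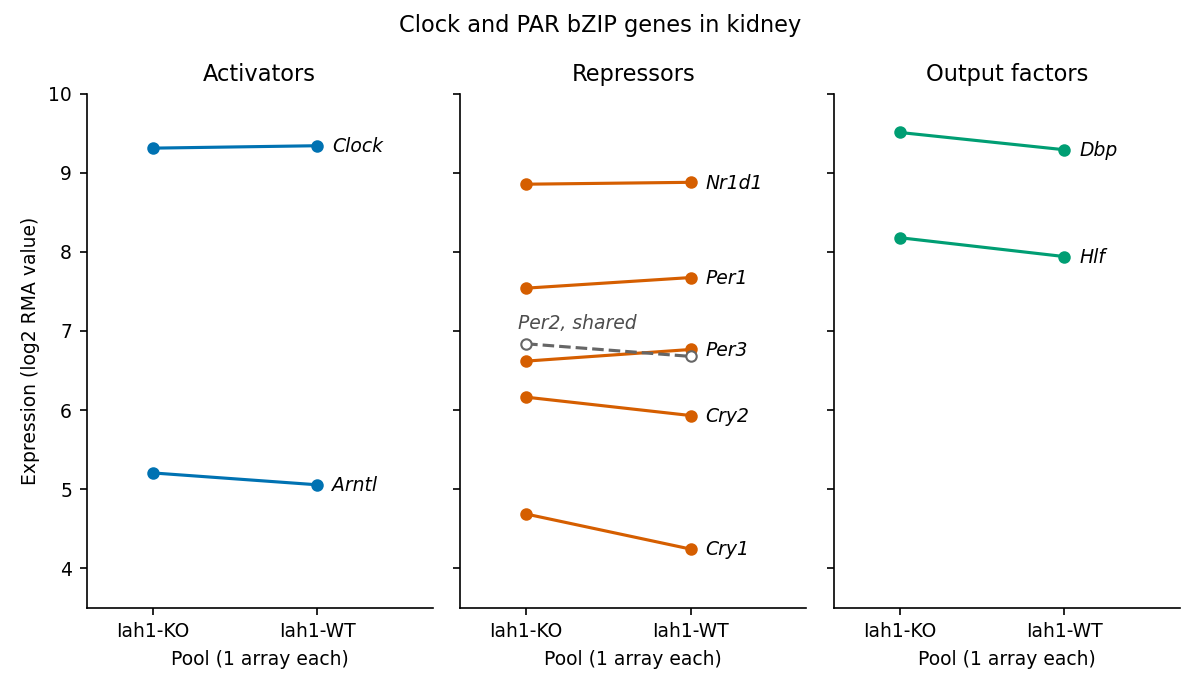
Log2 RMA value (y axis) of each clock and PAR bZIP gene in the Iah1-KO and the Iah1-WT pool (x axis, 1 array each), by class; the dashed line with open points is the probe set that Per2 shares with 9830107B12Rik. Dbp and Hlf slope down from the Iah1-KO to the Iah1-WT pool by 0.22 and 0.24, Per1 and Per3 slope up by less, and Clock and Nr1d1 are nearly level.

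The repressors lay on both sides of 0. The Period genes encode the PAS-domain proteins of the repressor complex. Per1 (probe set 17251527, chromosome 11) was at 7.54 in the Iah1-KO pool and 7.67 in the Iah1-WT pool, a difference of -0.13 against a robust SD of 0.14. Per3 (probe set 17433328, chromosome 4), whose window held the D-boxes shown above, was at 6.62 in the Iah1-KO pool and 6.77 in the Iah1-WT pool, a difference of -0.15 against a robust SD of 0.17. Both Period differences were thus within 1 local robust SD. The probe set shared by Per2 and 9830107B12Rik was at 6.84 in the Iah1-KO pool and 6.68 in the Iah1-WT pool, 0.16 higher against a robust SD of 0.18 among probe sets of like level, and its signal cannot be divided between the transcripts.

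The Cryptochrome genes, whose flavoprotein products bind and block the CLOCK and BMAL1 dimer, were above 0 in their own probe sets. Cry2 (probe set 17388389, chromosome 2) was at 6.16 in the Iah1-KO pool and 5.93 in the Iah1-WT pool, a difference of 0.23 against a robust SD of 0.18. A dimmer probe set annotated to both Cry2 and D930015M05Rik went the other way, at 4.48 in the Iah1-KO pool and 4.73 in the Iah1-WT pool. Cry1 (probe set 17243644, chromosome 10) was at 4.69 in the Iah1-KO pool and 4.24 in the Iah1-WT pool. Its difference of 0.44, or 36.0%, was the largest of the members, but it was also the dimmest member, and the robust SD at its level was 0.26. Its Iah1-WT value lay close to the Iah1-WT array's median, so whether it exceeds background is unknown.

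Nr1d1, the repressor of the second loop (probe set 17268884, chromosome 11), was at 8.85 in the Iah1-KO pool and 8.88 in the Iah1-WT pool. The difference of -0.024, against a robust SD of 0.099, was the smallest of all members. Nr1d1 and Dbp are both known as direct E-box targets with peaks in the day, and in these pools their differences were -0.024 and 0.22. The difference between these differences could not be tested with 1 array per genotype.

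**Figure D2:**
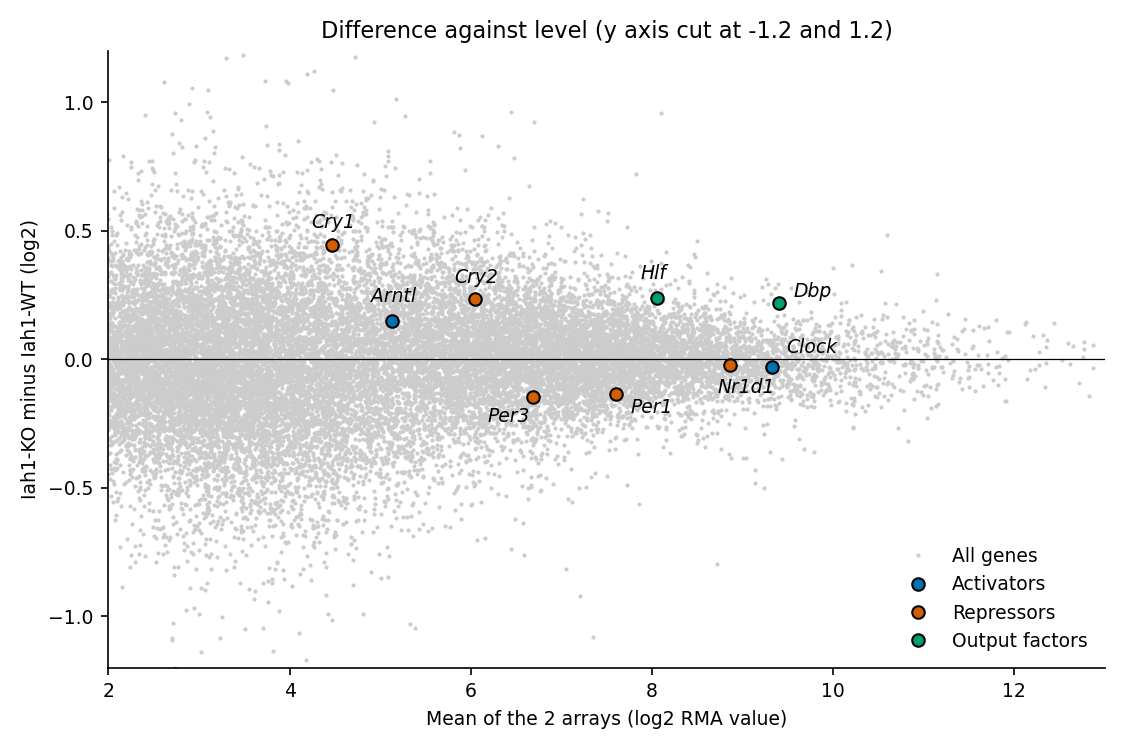
Iah1-KO minus Iah1-WT difference (y axis, log2) against the mean of the 2 arrays (x axis, log2 RMA value) for all genes (grey) and the 9 clock and PAR bZIP genes (coloured by class). The grey cloud narrows to the right: Cry1 and Arntl lie inside its wide left part, with robust SDs of 0.26 and 0.24. Hlf and Dbp lie in the upper part of its narrow right side, with robust SDs of 0.11 and 0.088. Of the 4899 genes that reach log2 7, 315 (6.43%) were higher by at least 0.2.

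As a group, the members did not share a direction. Of the 9, 5 were above 0 and 4 below, against 49.3% above and 50.5% below 0 over all 22180 genes. A difference of at least 0.2 on the log2 scale, about 1.15-fold, was reached upward by 4 members (Cry1, Cry2, Dbp and Hlf) and downward by 0, against 15.7% upward and 17.2% downward over all genes. At a step of 0.1, 5 members were higher and 2 (Per1 and Per3) lower, against 29.2% and 30.6% of all genes. At least 1.5-fold was reached by 0 members, against 2.42% of all genes. The median of the 9 was 0.15 and their mean 0.11, beside a median of -0.0024 over all genes. By class the medians were 0.060 for the 2 activators, -0.024 for the 5 repressors and 0.23 for the 2 output factors. The sign of the first 2 depended on the setting. With the shared Per2 probe set allowed the repressor median was 0.068. With a floor of log2 6, which leaves Clock as the only activator, the activator median was -0.031. Since the members were picked with these differences known, the counts are a description and no test was made.

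The group's median rested on its dimmest members. Of the 9, 7 reached a log2 value of at least 6 on at least 1 array, and Arntl and Cry1 did not. Over those 7 the median was -0.024, with 3 above and 4 below 0, against 52.4% above and 47.6% below 0 among the 7671 genes at that level. Cry2 reached that level in the Iah1-KO pool alone. The shared Per2 probe set, at a difference of 0.16, reached it in both pools but is not counted among the 7, so this median also depends on leaving it out. Among these 7, Cry2, Dbp and Hlf were higher by at least 0.2, against 9.67% of those genes, and 0 were lower by as much, against 7.5%. With a floor of 7, which 4899 genes reached, 5 members were left. Dbp and Hlf were higher by at least 0.2, against 6.43% of genes, and they were also the only members above 0, against 51% of genes above and 49% below.

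Other clock transcription factors also lay on both sides of 0. Of 12 listed, 11 had a value, 7 were above and 4 below 0, 4 were higher by at least 0.2 and 0 lower by as much, with a median of 0.14. Over all genes 49.3% were above 0, and 15.7% were higher and 17.2% lower by at least 0.2. Bhlhe40, which encodes the E-box repressor DEC1, was at 9.39 in the Iah1-KO pool and 9.18 in the Iah1-WT pool. The difference was 0.21, and the robust SD at that level was 0.088. The others at 0.2 or more were dim, below a log2 value of 6 on both arrays: its paralog Bhlhe41 at 0.23, the D-box repressor Nfil3 at 0.24, and Rorb at 0.52, with robust SDs of 0.29, 0.23 and 0.28. Rorb, at 3.75 in the Iah1-KO pool and 3.23 in the Iah1-WT pool, lay below both array medians and is not shown to be expressed.

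Apart from Tef, described above, the remaining factors were within 1 local robust SD of 0. Nr1d2, the paralog of Nr1d1 encoding REV-ERB beta, was at 8.60 in the Iah1-KO pool and 8.67 in the Iah1-WT pool, a difference of -0.072. Rora, the activator that competes for ROR elements, differed by -0.055, Npas2, a paralog of Clock, by -0.10, and Arntl2, a paralog of Arntl, by -0.13. Ciart, a repressor of the CLOCK and BMAL1 dimer, differed by 0.10, and Timeless, which acts mainly in DNA replication, by 0.14. The REV-ERB genes and Rora, the bright members of the second loop, all differed by less than 0.1.

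**Figure D3:**
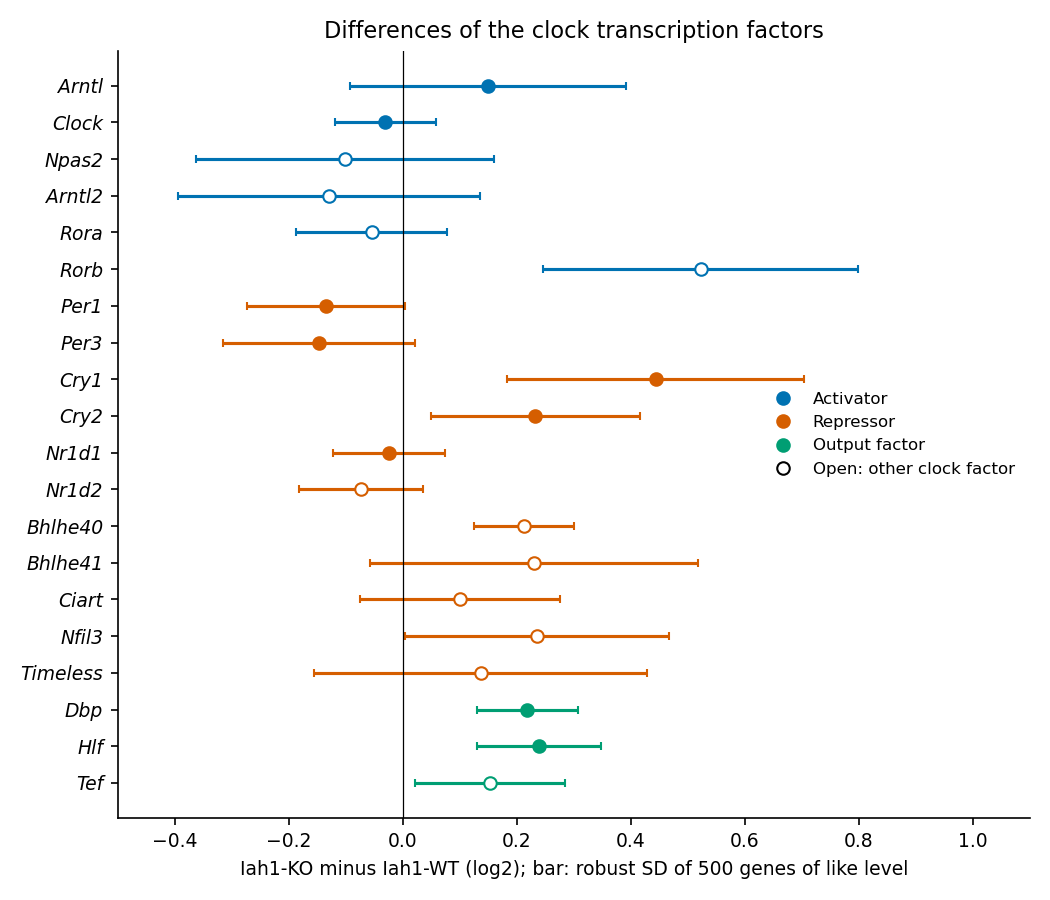
Iah1-KO minus Iah1-WT difference (x axis, log2) of the 9 clock and PAR bZIP genes (filled) and 11 other clock factors (open), coloured by class; horizontal bars are the robust SD of the differences of the 500 genes nearest in level, a spread over genes and not over animals. The bars of Dbp, Hlf, Bhlhe40, Cry1, Cry2 and Rorb do not reach 0, those of Tef and Nfil3 end just above 0, and those of the other genes cross it.

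Sorted by their usual time of day, the factors lay on both sides of 0 in either group. The 5 factors known to peak around the end of the night (Arntl, Npas2, Clock, Nfil3 and Cry1) had a median of 0.15, with 3 above and 2 below 0. The 9 with a value that peak from the day into the evening (Dbp, Tef, Hlf, Per1, Per3, Nr1d1, Nr1d2, Ciart and Bhlhe41) had a median of 0.10, with 5 above and 4 below 0. Over all genes 49.3% were above and 50.5% below 0. Of the end-of-night factors, Clock alone reached a log2 value of 6, at a difference of -0.031. The night side was therefore measured almost entirely with dim probe sets.

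Enzymes and cofactors that act on clock proteins lay around 0. Of 22 listed, 18 had a value, with a median of 0.01, 0 higher and 2 lower by at least 0.2. Over all genes 15.7% were higher and 17.2% lower by as much. Of the 18, 16 reached a log2 value of 6, where the shares were 9.67% and 7.5%. Gsk3b, a kinase that phosphorylates several clock proteins, was at 8.68 in the Iah1-KO pool and 9.06 in the Iah1-WT pool, a difference of -0.38 against a robust SD of 0.10. Fbxl21, a ubiquitin ligase subunit that acts on Cryptochromes, was dim and differed by -0.31. The splicing-related cofactors Sfpq and Nono differed by -0.18 and 0.17, and the casein kinase genes Csnk1e, Csnk1a1 and Csnk2a1 by 0.09, -0.02 and 0.00.

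Downstream genes were described from 3 lists. Of 7 genes known as PAR bZIP targets in mouse liver, 6 had a value. With 4 above and 2 below 0, against 49.3% and 50.5% of all genes, they had a median of 0.12. The bright one among them that differed most was Alas1, the rate-limiting enzyme of haem synthesis, at 9.50 in the Iah1-KO pool and 9.30 in the Iah1-WT pool (difference 0.20, just under the step of 0.2, with a robust SD of 0.088). The nuclear receptor gene Nr1i3 at 0.52, Cyp2b10 at -0.34 and Cyp2a5 at 0.31 were dim, and Ppara and Pdxk differed by -0.02 and 0.05. Of 9 genes that cycle in many tissues, 8 had a value. These 8 had a median of 0.14, with 6 above 0 against 49.3% of all genes. They included Lonrf3 at 0.38, Tsc22d3 at 0.22, Tspan4 at -0.17 and Leo1 at 0.17, while Usp2, a deubiquitinase gene driven by the clock, and the cell cycle kinase gene Wee1 both differed by 0.14.

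Of 10 kidney transport genes described as clock-dependent in mice, 9 were above and 1 below 0, with a median of 0.08, against 49.3% above and 50.5% below 0 over all genes. The water channel genes Aqp4 and Aqp2 differed by 0.57 and 0.49, and the other 8 lay between -0.02 and 0.19, the upper end being the dim endothelin gene Edn1. Scnn1a, a subunit of the epithelial sodium channel, differed by 0.09 and the sodium-proton exchanger gene Slc9a3 by 0.03. Of the 4 principal cell markers, Aqp2 and Avpr2 are themselves in this list; Aqp2, Aqp3 and Scnn1g were above 0 (0.49, 0.14 and 0.16) and Avpr2 was at -0.02. Their summed linear level (the sum of 2 to the power of each log2 value) was 804 in the Iah1-KO pool and 714 in the Iah1-WT pool. In pooled whole kidney, more cells of a type and more RNA per cell cannot be told apart.

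**Figure D4:**
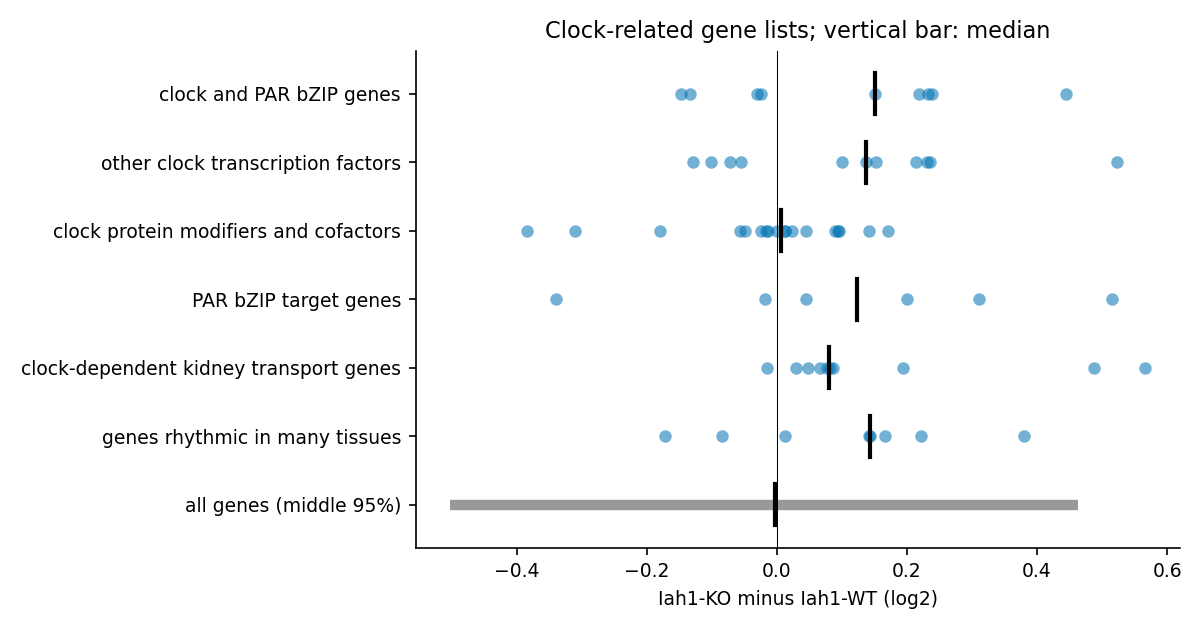
Iah1-KO minus Iah1-WT difference (x axis, log2) of each gene with a value in 6 clock-related lists (points; vertical bars are medians) and, in the bottom row, the middle 95% of all 22180 genes (-0.50 to 0.46). The medians lie between 0.01 and 0.15, and 4 points, Aqp4, Aqp2, Rorb and Nr1i3, lie above the range of the bottom row.

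Cues known to reset or drive peripheral clocks were examined beside them. The glucocorticoid list held the receptor gene Nr3c1, at 0.05, and 7 genes known to respond to the hormone. All 8 were above 0, with a median of 0.17, against 52.4% of the genes that reach a log2 value of 6, as these 8 do. By at least 0.2, 4 were higher, against 9.67% of those genes and 15.7% of all genes without a floor: Zbtb16 at 0.73, Dusp1 at 0.38, Fkbp5 at 0.31 and Tsc22d3 at 0.22. Zbtb16 and Tsc22d3 reached log2 6 in the Iah1-KO pool alone, so their place in that comparison depended on their higher Iah1-KO values. Per1, which glucocorticoids are known to induce, was at -0.13. Of 6 temperature-responsive genes with a value, which all reach a log2 value of 6 (Cirbp in the Iah1-WT pool alone), 4 were above 0. The share among genes at that level was 52.4%, and the median of the 6 was 0.15. The heat shock genes Hsph1, Dnajb1 and Hspa1b were at 0.24, 0.24 and 0.21, Hspa1a at 0.09 and Hspa8 at -0.02. A dim probe set shared by Hspa1a and Hspa1b was at -0.14, and the dimmer probe sets of Hspa8 lay between 0.13 and 0.20. The cold-inducible Cirbp was at -0.28. Of 5 feeding-responsive genes with a value, which also reach a log2 value of 6, 4 were below 0, against 47.6% of genes at that level. The median of the 5 was -0.18, with Pdk4 at -0.56 and Angptl4 at -0.36. Their part in the values of the clock genes was not tested.

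The tissue was checked against markers of kidney and other cell types. Proximal tubule markers were bright, all 6 between differences of -0.06 and 0.11, and their summed linear level differed by a ratio of 1.01. All 4 adipocyte, 4 adrenal cortex and 4 lymphocyte markers were below a log2 value of 6 in both pools. Over all genes 49.3% were above and 50.5% below 0. Of 5 endothelial markers 4 were above 0, with a median of 0.16. Their summed linear level was 1243 in the Iah1-KO pool and 1166 in the Iah1-WT pool. Of 5 macrophage markers 3 were above 0 and 2 below, at 422 in the Iah1-KO pool and 377 in the Iah1-WT pool. Lyz2 was at 0.63, Cx3cr1 at 0.41 and Csf1r at 0.11, while the dim Adgre1 was at -0.73 and Cd68 at -0.23. Of the 4 intercalated cell markers 3 were below 0: Atp6v1g3 at -0.81, Foxi1 at -0.18 and Slc26a4 at -0.09, while Slc4a1 was at 0.18. Their summed level was 602 in the Iah1-KO pool and 703 in the Iah1-WT pool, a sum that does not describe all 4 alike. The medians were -0.14 for 4 loop of Henle markers, 0.07 for 3 distal convoluted tubule markers, 0.10 for 3 podocyte markers and 0.10 for 4 hepatocyte markers. Among the hepatocyte markers, the bright Alb and Ttr went opposite ways, at 0.40 and -0.19. The dim Apoa1 and Serpina1a were at 0.25 and -0.04. The adipocyte median was -0.38, with the dim Lep at -0.65 and Cidec at -0.64. Whether these shifts in cell markers bear on Dbp and Hlf was not tested.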

How the data were processed

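Kidney RNA of Iah1-KO and Iah1-WT mice was measured on 2 Affymetrix whole-transcript arrays, 1 per genotype, each with RNA pooled from 3 mice; per the labels, 100 ng of total RNA was labelled. Per the submitters' processing notes, the deposited log2 values of the authors came from Affymetrix Expression Console 1.3.0, which ran RMA. RMA forces the arrays to a common distribution and compresses differences of dim probe sets, so a shift of most transcripts would not show. The sources used here do not give the genome build behind the probe sets. The number of arrays limits the precision.

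Of 41345 probe sets, 23521 carried exactly 1 symbol in GEO's platform annotation, 1814 several and 16010 none; the brightest per gene over both arrays was used, with no floor. Differences are Iah1-KO minus Iah1-WT. Members, lists and thresholds were chosen with earlier results of these data known. Named were all members and other clock transcription factors, and, per other list, the 4 furthest from 0, besides a few named for their role after their values were seen. Of 134 genes listed, cell markers included, 124 had a value; the other 10 were not analysed here, nor were protein sequences. Alternatives were centring, a loess correction (span 0.3), the mean over probe sets, shared probe sets, floors of log2 5, 6 and 7, the mean and a step of 0.1. The robust SD and the loess step were tested on simulated data. Python 3.11.15, numpy 2.4.6, pandas 2.3.3 and statsmodels 0.14.6 were used.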

Additional observations from a re-analysis of the deposited data

How the results depend on the processing

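Of 158 alternative values, 150 stayed within their tolerance (for medians 0.14 on the log2 scale, the members' median robust SD; for counts, 1.5 times) and 8 moved. Each of the 6 moved values on the members came from a floor or a smaller step. The median of the members, 0.15, was -0.024 with a floor of log2 6 and -0.024 with a floor of log2 7, since these floors leave out Arntl and Cry1. The number above 0, 5, was 3 with a floor of log2 6 and 2 with a floor of log2 7. The number higher by at least 0.2, 4, was 2 with a floor of log2 7. With a step of 0.1 the number lower was 2 in place of 0. The other 2 moved values were the median of the end-of-night factors, 0.15, which was -0.031 with floors of log2 6 and 7. Within the tolerance, the activator median changed sign with floors of log2 6 and 7, and the repressor median with shared probe sets. No member changed sign in 36 alternative values under centring, loess, the mean over probe sets or shared probe sets, and the largest move was 0.03. The mean over probe sets and the shared probe sets returned every member's main value, so they could not change a sign. The dimmer probe set that Cry2 shares, at -0.26, was not used in them. No paired analysis was possible because each genotype has 1 array, and none could be left out. Without detection calls, whether Arntl and Cry1 exceed background is unknown here.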
